A study of Mus musculus with 20 samples.

Results

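Osteopontin, the secreted phosphoprotein encoded by Spp1, and the integrin subunits that bind it were followed in the mouse uterus shortly before implantation. The 10 genes were Spp1, the alpha subunits Itgav, Itga5, Itga8 and Itga9, and the beta subunits Itgb1, Itgb3, Itgb5, Itgb6 and Itgb8, and they were taken by symbol from a table of 45777 genes. RNA from 20 uteri of wild-type B6D2F1 mice, 8 to 12 weeks old and mated, was collected at 18:00 on day 3.5, with 5 mice in each of 4 groups and RNA from 1 horn per mouse. The control group received nothing. The implantation failure (IF) group received 3 mg/kg RU486 under the skin on the morning of day 3.5. The PBMC group received the same RU486 dose after 50000 peripheral blood mononuclear cells (PBMCs) from non-pregnant mice had been placed in each horn on day 1.5. The PBMC-hCG group was treated in the same way, with cells that had been cultured with 5 IU/mL human chorionic gonadotropin (hCG). The cells of the PBMC group had also been cultured before transfer, without hCG. RU486 (mifepristone) blocks the glucocorticoid receptor as well as the progesterone receptor, and the transferred PBMCs were a mixture of blood cell types. Neither the control nor the IF group was injected into the uterus. In comparisons with these groups, the cells and the injection therefore cannot be told apart. The study's medium group, given culture medium containing hCG but no cells, was not among these 20 uteri.

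An integrin is a pair of 1 alpha and 1 beta subunit that spans the cell membrane and holds cells to the proteins around them. Osteopontin carries an arginine-glycine-aspartate motif that is read by integrins containing alpha v, and by alpha 5 beta 1 and alpha 8 beta 1, and a neighbouring site exposed by thrombin is read by alpha 9 beta 1. In the uterus of many mammals, osteopontin is made by glandular epithelium and by immune cells, and alpha v beta 3 on the luminal surface has long been studied as a marker of the receptive state. Beta 6 and beta 8 are best known for releasing active TGF-beta from its latent complex.

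The 250 bases before the start of 3 of these genes are shown because they are the windows in which a regulator of the member would first be looked for: Spp1 as the ligand, Itgb5 as a beta subunit that was higher in the IF group, and Itga5 as an alpha subunit that was lower in the PBMC-hCG group. The sequences are those of RefSeq on GRCm38 (the build also called mm10), read 5′ to 3′ on the strand of the gene, with GC boxes (GGGCGG) and CCAAT boxes (CCAAT) of either strand in capitals.
Spp1, chr5:104434861-104435110, plus strand: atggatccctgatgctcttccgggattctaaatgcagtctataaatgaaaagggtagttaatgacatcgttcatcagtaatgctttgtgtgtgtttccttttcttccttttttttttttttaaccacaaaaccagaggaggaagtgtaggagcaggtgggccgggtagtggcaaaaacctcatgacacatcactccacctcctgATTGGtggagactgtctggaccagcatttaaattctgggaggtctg
Itgb5, chr16:33829415-33829664, plus strand: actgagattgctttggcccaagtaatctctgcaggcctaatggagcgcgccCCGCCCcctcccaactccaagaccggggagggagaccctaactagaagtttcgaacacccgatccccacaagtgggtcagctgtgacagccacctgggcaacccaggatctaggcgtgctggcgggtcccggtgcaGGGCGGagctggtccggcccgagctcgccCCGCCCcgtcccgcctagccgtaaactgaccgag
Itga5, chr15:103366792-103367041, minus strand: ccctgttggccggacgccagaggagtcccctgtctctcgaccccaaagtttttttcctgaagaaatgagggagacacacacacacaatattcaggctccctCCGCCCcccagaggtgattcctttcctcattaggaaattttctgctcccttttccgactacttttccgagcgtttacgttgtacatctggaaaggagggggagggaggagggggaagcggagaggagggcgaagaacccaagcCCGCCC

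The window before Spp1 held 3 CpG dinucleotides and 43.6% G and C, against medians of 6 CpG and 52.4% over 32851 promoters of the same length. Those before Itgb5 and Itga5 were richer, with 18 CpG and 65.2% for Itgb5 and 11 CpG and 55.6% for Itga5. Itgb5 held 3 GC boxes and Itga5 held 2, and 32.7% of all promoters held at least 1. The CCAAT box of Spp1 has its like in 33.8% of promoters. The consensus letters of a progesterone and glucocorticoid response element (in 0.0609% of promoters), an estrogen response element (in 0.0639%) and an AP-1 site (TGANTCA, in 6.75%), searched on both strands, were in none of these 3 windows.

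Abundance was deposited as TPM (transcript abundance scaled to a fixed library total), which corrects for transcript length and lets levels be compared between genes. All 10 members were listed above 0 TPM in all 20 libraries, which was the filter for testing and which 18706 genes passed. Each library's total lay between 999989 and 999999 TPM, so the number of reads behind a value is unknown and no counting error is given. Differences are log2 fold changes of log2(TPM + 0.1) with their standard error (SE), tested with limma in 1 fit of the 4 groups, and a gene was called when its p-value, adjusted by the Benjamini-Hochberg method over all 18706 genes, was under 0.05. The pseudocount of 0.1 TPM makes the change of a low gene such as Itgb6 look smaller. Nothing in the labels gives a sequencing batch or date. The uterine markers Pgr, Esr1 and Hoxa10 were present in every library, at 38.0 TPM or more. Control replicate 2 stood apart, with a median correlation to its group of 0.963 against 0.980 to 0.990 for the other 19 libraries, and with adipose markers summing to 342 TPM against at most 81.1 TPM in any other library. Values without it, and without control replicate 5, which was far from its group in Spp1 and Itgb6, are given where they change the call of a member.

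The members differed widely in level. Itgb1, the partner of most alpha subunits, was highest with a mean of 315 TPM over the 20 libraries and exceeded every other member in each library. Spp1 followed at 131 TPM and Itgb5 at 111 TPM, and their order held in 16 of 20 libraries. Itga5 (85.4 TPM) lay below Itgb5 in 14 libraries, but in only 1 of the 5 control libraries. The order Itga5, Itgb3 (57.4 TPM), Itgav (28.2 TPM) and Itga9 (17.3 TPM) was the same in all 20 libraries. Itgb8 (11.2 TPM) and Itga8 (8.53 TPM) came next and kept their order in 19 libraries. Itgb6 was lowest, between 0.239 and 1.70 TPM in every library. The neighbouring pairs of Spp1 with Itgb5 and Itgb5 with Itga5 were therefore not separated beyond the spread among mice.

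**Figure D1:**
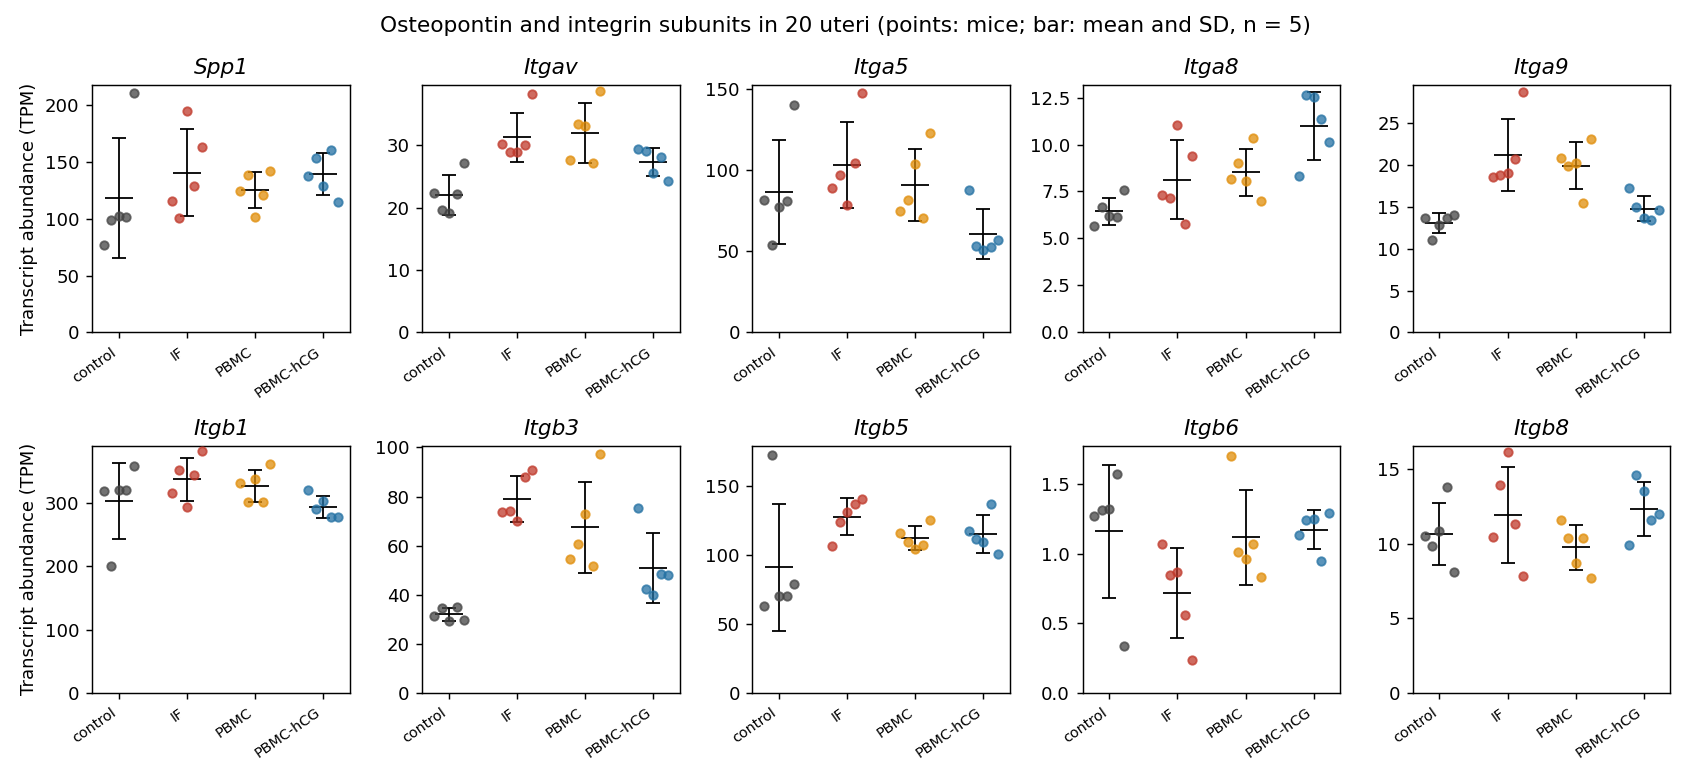
Transcript abundance (TPM, linear axes starting at 0, a separate scale per gene) of Spp1 and the 9 integrin subunits in each of the 20 uteri, with points for mice and bars for the mean and SD of 5. For Itgb3, the 5 IF mice (69.8 to 90.6 TPM) lie above all 5 control mice (29.2 to 34.9 TPM), while the Spp1 points of all 4 groups overlap.

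Whether RU486 alone moved these genes was asked by comparing the IF with the control group. Of the 10 members, 4 were higher in IF (Itgb3, Itga9, Itgb5 and Itgav) and none was lower, where 13.4% of all tested genes were called higher and 8.53% lower. The median log2 fold change was 0.30 over the members and 0.02 over all tested genes. The values of 3 members, Itgb3, Itga9 and Itgav, did not overlap between the groups and were higher in IF, as was so for 8.55% of all genes. Osteopontin itself was not called.

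Spp1 lies on chromosome 5 from 104435111 to 104441053. Its control values, in order of replicate, were 76.8, 98.7, 102, 101 and 211 TPM, and those of the IF group were 116, 101, 195, 129 and 163 TPM. The groups overlapped, and control replicate 5 was above every other library of the study. The means were 118 ± 52.9 TPM (SD, n = 5) in the control and 141 ± 38.0 TPM (SD, n = 5) in the IF group. The log2 fold change was 0.31 (SE 0.21, 95% interval -0.14 to 0.75, adjusted p = 0.334). Without control replicate 5 it was 0.54 with an adjusted p of 0.0241, so that 1 mouse decided this call. In the PBMC group Spp1 was at 124, 138, 102, 121 and 142 TPM, and in the PBMC-hCG group at 138, 154, 129, 161 and 114 TPM. These 10 mice all lay within the range of the control group, whose upper end was control replicate 5 alone. The other control mice, at 76.8 to 102 TPM, were below every PBMC-hCG mouse and below every PBMC mouse except replicate 3.

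Itgav encodes alpha v, the subunit shared by the osteopontin receptors alpha v beta 1, beta 3, beta 5, beta 6 and beta 8, and lies on chromosome 2 from 83722303 to 83806917. The control libraries held 22.3, 19.5, 19.2, 22.1 and 27.2 TPM and the IF libraries 30.2, 29.0, 28.9, 30.0 and 38.3 TPM. Every IF mouse was above every control mouse. Itgav was 0.50 higher in IF on the log2 scale (SE 0.11, adjusted p = 0.00287), a 1.42-fold difference with a 95% interval from 1.21 to 1.66.

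Itga9 encodes alpha 9, the partner of beta 1 in the receptor for thrombin-cleaved osteopontin and for tenascin-C, and lies on chromosome 9 from 118606709 to 118901003. It was at 13.7, 11.1, 12.9, 13.7 and 14.0 TPM in the control and at 18.5, 18.8, 19.1, 20.7 and 28.7 TPM in the IF group, again with no overlap. The difference was 0.68 (SE 0.12, adjusted p = 0.000526), or 1.60-fold (95% interval 1.34 to 1.91). The pseudogene Gm10157 lies within the span of Itga9 and had a mean of 12.0 TPM, and the sources used here do not say how reads in such overlaps, or on which strand, were assigned.

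Itga5, which encodes the alpha subunit of the fibronectin receptor alpha 5 beta 1, varied widely inside both groups. Control values were 81.7, 53.9, 77.6, 80.8 and 141 TPM, and IF values were 88.8, 96.8, 78.7, 105 and 148 TPM. The lowest control mouse was replicate 2 and the highest mouse in each group was replicate 5. The difference of 0.29 (SE 0.22, adjusted p = 0.404) did not pass. Itga8, whose product with beta 1 is a receptor for nephronectin, was at 5.68 to 7.56 TPM in the control and 5.76 to 11.1 TPM in the IF group, and its difference of 0.30 (SE 0.16, adjusted p = 0.194) did not pass either.

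Itgb3, encoding beta 3, had the lowest adjusted p of the members. It lies on chromosome 11 from 104608000 to 104670476. The control mice held 31.5, 34.8, 29.2, 34.9 and 29.8 TPM, and the IF mice 73.5, 74.0, 69.8, 87.7 and 90.6 TPM. The groups were far apart, the lowest IF mouse being at 69.8 TPM and the highest control mouse at 34.9 TPM. Itgb3 was 1.30 higher on the log2 scale (SE 0.16, adjusted p = 1.85e-05), which is 2.46-fold with a 95% interval from 1.94 to 3.12, and it was the only member whose difference reached 2-fold.

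Itgb5, encoding beta 5, the alpha v partner in a vitronectin receptor, lies on chromosome 16 from 33829665 to 33949338. It was at 63.0, 173, 70.2, 69.9 and 78.6 TPM in the control and at 106, 124, 131, 136 and 140 TPM in the IF group. Control replicate 2, at 173 TPM, was above all IF mice, and the other 4 control mice were below all of them. The difference was 0.59 (SE 0.19, adjusted p = 0.0298) with all mice and 0.85 (adjusted p = 2.67e-06) without control replicate 2. The call was lost in 7 of the 10 fits that left out 1 mouse of either group, with the highest adjusted p, 0.0845, without control replicate 1. Without control replicate 5 the difference was 0.57 (adjusted p = 0.0568). The call was kept without control replicate 2, IF replicate 1 or IF replicate 2.

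The remaining beta subunits were not called. Itgb1 was at 319, 201, 319, 320 and 358 TPM in the control and at 294 to 381 TPM in the IF group (0.17, SE 0.12, adjusted p = 0.317). Control replicate 2 was low in Itgb1 and high in Itgb5. Itgb8 was at 8.09 to 13.8 TPM in the control and 7.82 to 16.1 TPM in the IF group (0.15, SE 0.17, adjusted p = 0.611). Itgb6, an epithelial subunit, was at 1.27, 1.31, 1.32, 1.57 and 0.337 TPM in the control and at 1.07, 0.842, 0.870, 0.560 and 0.239 TPM in the IF group. Of the control mice, 4 were above all IF mice, and control replicate 5 lay below 4 of the IF mice. The difference in Itgb6 was -0.61 (SE 0.34, adjusted p = 0.218), and -0.96 (adjusted p = 0.0189) without control replicate 5. In bulk tissue, fewer cells of a type and less RNA per cell cannot be told apart, here or below.

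**Figure D2:**
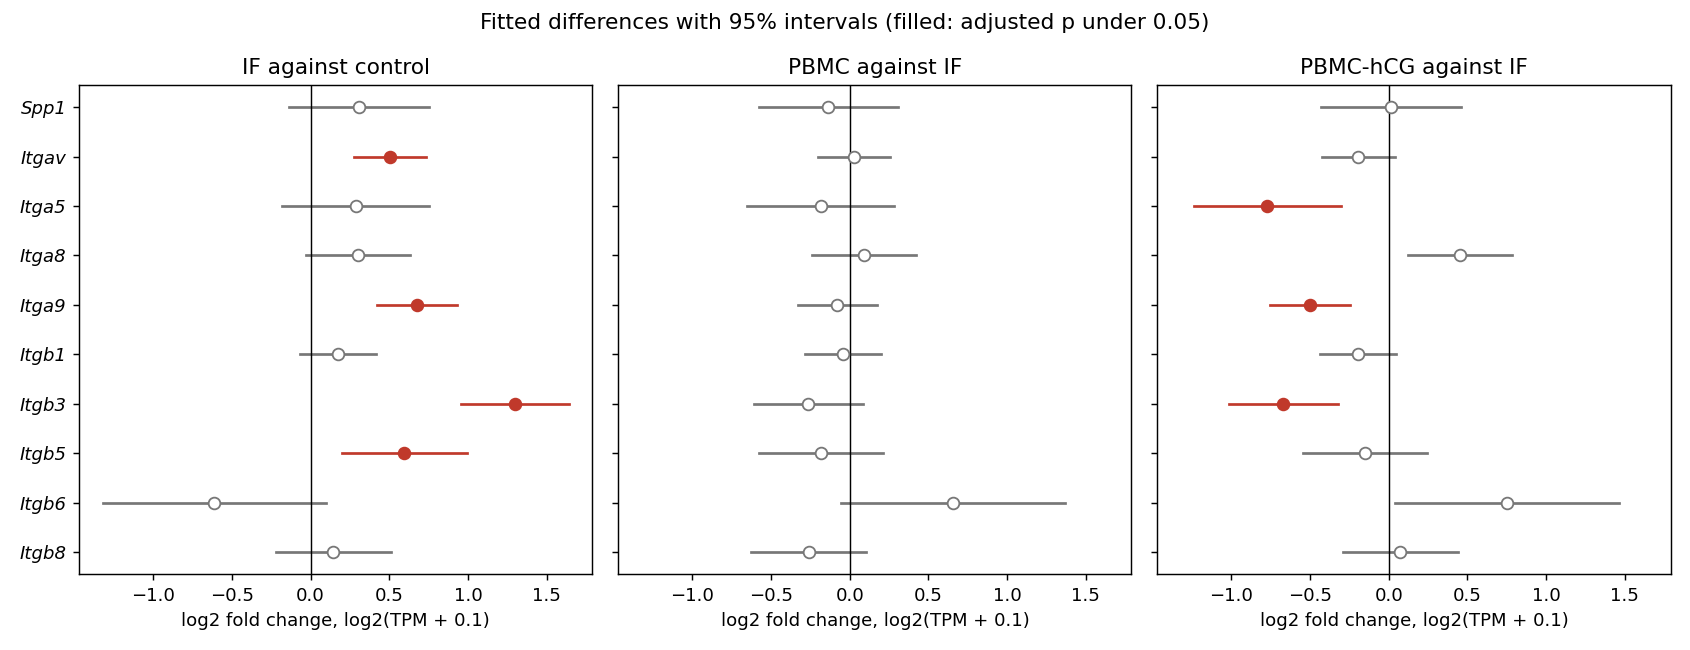
Log2 fold changes of log2(TPM + 0.1) for the 10 members in 3 comparisons, as points with 95% intervals from the fit of all 20 libraries, filled where the adjusted p was under 0.05. For IF against control, 4 points are filled and to the right of 0, none is filled for PBMC against IF, and 3 are filled and to the left of 0 for PBMC-hCG against IF.

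The make-up of the beta subunits shifted between control and IF mice, in Itgb3 and, outside control replicate 2, also in Itgb5 and Itgb1. As a share of the summed TPM of Itgb1, Itgb3, Itgb5, Itgb6 and Itgb8, Itgb3 made up 6.28% to 8.29% in the control mice and 13.1% to 15.1% in the IF mice. It made up 10.6% to 16.5% in the PBMC and 8.57% to 14.4% in the PBMC-hCG group. The ratio of Itgb3 to Itgav, the transcripts of both subunits of alpha v beta 3, was 1.09 to 1.78 in control and 2.37 to 2.93 in IF mice. In the PBMC group this ratio was 1.82 to 2.51, and in the PBMC-hCG group 1.45 to 2.56. Itgb1 held 72.7% to 75.4% of the sum in 4 control mice and 47.9% in control replicate 2, where Itgb5 held 41.2%. Itgb5 held 14.8% to 16.5% in the other 4 control mice. In the IF mice, Itgb1 held 57.4% to 62.3% and Itgb5 21.0% to 25.6%. The Itgb5 share was 19.9% to 22.7% in the PBMC and 22.5% to 28.8% in the PBMC-hCG group. That of Itgb1 was 60.9% to 64.4% in the PBMC and 58.4% to 64.9% in the PBMC-hCG group. These shares rest on the same values as the fold changes above and were not tested again.

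**Figure D3:**
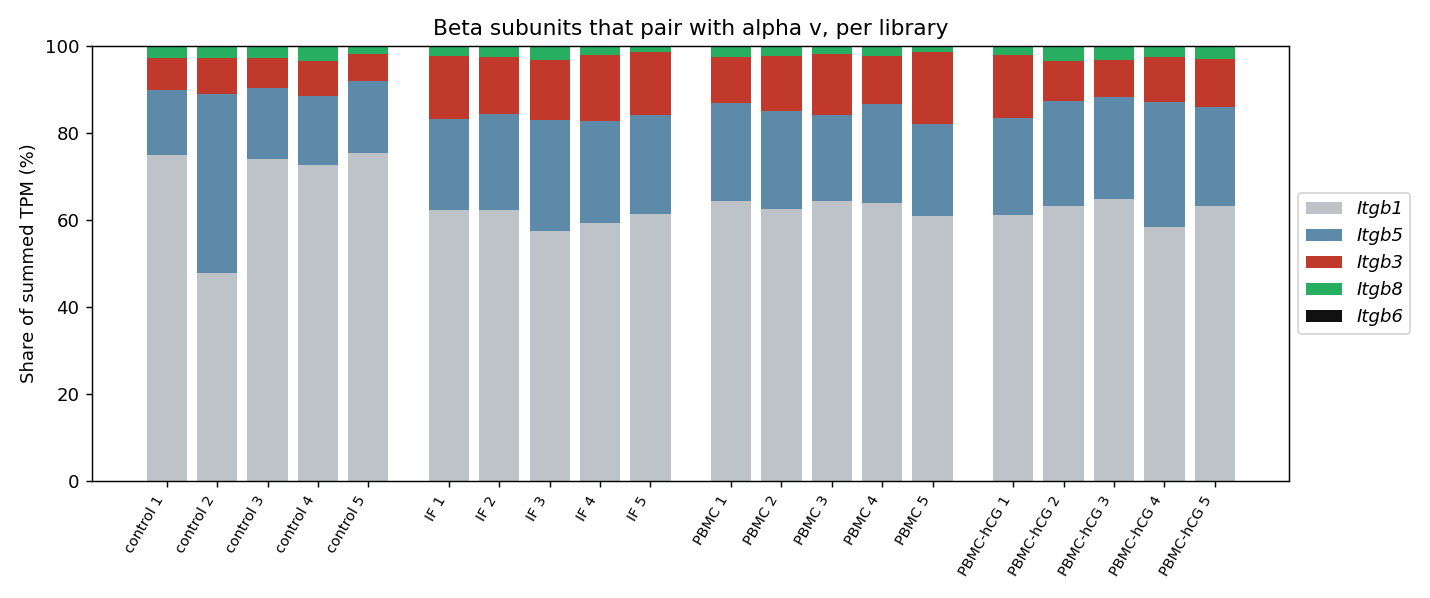
Share (%) of each beta subunit in the summed TPM of Itgb1, Itgb3, Itgb5, Itgb6 and Itgb8, as 1 stacked bar per library. The Itgb3 band is 6.28% to 8.29% high in the control and 13.1% to 15.1% high in the IF libraries, and control replicate 2 has an Itgb5 band of 41.2%.

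Whether PBMCs without hCG moved the members was asked by comparing the PBMC with the IF group, whose mice are also those of the comparison above. No member was called with limma, and none had an unadjusted p under 0.05. Of all tested genes, 0% were called and 6.79% had an unadjusted p under 0.05. The median log2 fold change of the members was -0.11, against 0.02 over all genes. Itgb3 was at 54.6, 60.7, 73.1, 51.7 and 97.3 TPM in the PBMC group, with 3 mice below all IF mice and replicate 5 above all of them. Its difference was -0.26 (SE 0.16, 95% interval -0.61 to 0.08, adjusted p = 0.783), and -0.40 (adjusted p = 0.263) without PBMC replicate 5. Itga9, at 20.9, 19.9, 20.3, 15.5 and 23.2 TPM, differed by -0.08 (95% interval -0.33 to 0.18, adjusted p = 0.917). Itgav, at 27.6, 33.4, 33.2, 27.2 and 38.7 TPM, differed by 0.03 (95% interval -0.20 to 0.26, adjusted p = 0.972). Both intervals leave out a fall as large as the rise from control to IF, 0.68 for Itga9 and 0.50 for Itgav. Itgb6, at 1.70, 1.01, 0.961, 1.07 and 0.834 TPM, differed by 0.66 with a wide interval from -0.05 to 1.37 (adjusted p = 0.746).

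Cells cultured with hCG were compared with the same IF mice. In PBMC-hCG, 3 of the 10 members were lower (Itga9, Itgb3 and Itga5) and none was higher, where 5.99% of all tested genes were called lower and 7.61% higher. The median was -0.17 over the members and 0.05 over all genes. Itga9 was the 1 member without overlap, a pattern that 2.19% of all genes showed in this direction. These calls depended on which mice were in the fit. In 7 of the 10 fits that left out 1 mouse, namely IF replicate 2, 4 or 5 or PBMC-hCG replicate 2, 3, 4 or 5, no member was called, and the count over all genes fell from 2544 to between 0 and 34. Without IF replicate 1 it was 2334 genes, and it rose to 5061 without IF replicate 3, where 4 members were called, and to 4166 without PBMC-hCG replicate 1.

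Itga9 was at 17.2, 15.0, 13.7, 13.4 and 14.7 TPM in the PBMC-hCG group. All 5 mice were below the lowest IF mouse, which was at 18.5 TPM. The difference was -0.50 (SE 0.12, adjusted p = 0.0287), or 0.707-fold with an interval from 0.593 to 0.843, and it lay between -0.56 and -0.39 when each mouse was left out. Itgb3 was at 75.5, 42.2, 39.9, 48.3 and 48.2 TPM. Replicate 1 was inside the IF range of 69.8 to 90.6 TPM and the other 4 mice were below it. The difference was -0.67 (SE 0.16, adjusted p = 0.0287), or 0.629-fold, and -0.82 (adjusted p = 0.00542) without PBMC-hCG replicate 1. Itga5, on chromosome 15 from 103344286 to 103366791, showed the same mouse apart, at 87.8, 53.3, 51.1, 52.8 and 57.1 TPM, with the other 4 below the lowest IF mouse at 78.7 TPM. Its difference was -0.77 (SE 0.22, adjusted p = 0.0372).

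Among the members that missed the threshold, Itga8 was at 8.31, 12.6, 12.6, 11.4 and 10.1 TPM and differed by 0.45 (SE 0.16, adjusted p = 0.0598). Of these mice, 3 were above all IF mice. It passed without IF replicate 3 (0.57, adjusted p = 0.0151) and without PBMC-hCG replicate 1 (0.55, adjusted p = 0.0243). Itgb6, at 1.13, 1.24, 1.25, 0.944 and 1.29 TPM, differed by 0.75 (SE 0.34, adjusted p = 0.124), with 4 mice above all IF mice. Spp1 differed by 0.01 (95% interval -0.43 to 0.46, adjusted p = 0.971), Itgav by -0.19 (adjusted p = 0.218), Itgb1 by -0.20 (adjusted p = 0.231), Itgb5 by -0.15 (adjusted p = 0.600) and Itgb8 by 0.08 (adjusted p = 0.792). The ratio of Itga5 to Itga8, 2 alpha subunits that pair with beta 1, had a median of 13.2 in the control, 13.5 in the IF, 9.15 in the PBMC and 4.64 in the PBMC-hCG group. Its ranges, in that order, were 8.06 to 18.6, 7.11 to 18.1, 6.82 to 17.6 and 4.07 to 10.6, so that all groups overlapped.

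The effect of hCG in the culture was tested between the groups given PBMC-hCG and PBMC. No member was called with limma, where 0.0107% of all tested genes were. There were 4 members with an unadjusted p under 0.05, where 16.2% of all genes did. They were Itga9 (-0.42, SE 0.12, adjusted p = 0.264), Itga5 (-0.59, SE 0.22, adjusted p = 0.283), Itgb3 (-0.41, SE 0.16, adjusted p = 0.284) and Itga8 (0.36, SE 0.16, adjusted p = 0.293). The values of both groups overlapped for all 10 members. A difference between the groups given hCG-treated and untreated cells was therefore not shown for any member.

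Against the control group, which all of the following share, both cell-treated groups still differed. In PBMC against control, 3 members were higher and none lower, where 12.8% of all genes were called higher and 6.7% lower. They were Itgb3 (1.04, SE 0.16, adjusted p = 0.000211), Itga9 (0.60, SE 0.12, adjusted p = 0.00166) and Itgav (0.53, SE 0.11, adjusted p = 0.00206), and Itgb3 and Itga9 had no overlap, as was so for 8.65% of all genes. In PBMC-hCG against control, 3 members were higher and none lower, where 20.2% of all genes were called higher and 11.6% lower. Itgb3 was 0.63 higher (SE 0.16, adjusted p = 0.0073), or 1.55-fold, with all 5 mice above the highest control mouse. Itga8 was 0.75 higher (SE 0.16, adjusted p = 0.0016), or 1.68-fold, also with no overlap, a pattern that 13.2% of all genes showed. Itgav was 0.31 higher (SE 0.11, adjusted p = 0.0379), a call lost in 7 of the 10 fits that left out 1 mouse, with an adjusted p of up to 0.0979 without control replicate 3 and a difference of 0.27 (adjusted p = 0.0707) without control replicate 2. Itgb5 passed against control in both cell-treated groups only without control replicate 2 (0.67, adjusted p = 4.09e-05 for PBMC and 0.70, adjusted p = 1.83e-05 for PBMC-hCG). In PBMC-hCG against control, Spp1 passed without control replicate 5 (0.55, adjusted p = 0.0175), and Itga5 passed as lower without control replicate 2 (-0.64, adjusted p = 0.0258) or PBMC-hCG replicate 1 (-0.63, adjusted p = 0.0385). Itga9, with a difference of 0.18 (95% interval -0.08 to 0.43, adjusted p = 0.282), was not called there.

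How the ligand and its receptor subunits varied across mice was described by Pearson's r of the log2 values over the 20 libraries, which share the table and its scaling. For Spp1 and Itgb3 it was 0.23, and -0.02 after the group means were taken out. Spp1 had r = 0.50 with Itgav, 0.54 with Itga8 and -0.57 with Itgb6. Itgb3 and Itga9 had r = 0.87, and 0.59 within groups, and Itgav and Itga9 had r = 0.87 and 0.73 within groups. Among 15770 genes with a mean of at least 1 TPM, those most like Itgb3 were Arl4c (r = 0.981), Oxtr (r = 0.978), which encodes the oxytocin receptor, and Ccl11 (r = 0.966), which encodes eotaxin. Oxtr had a mean of 9.83 ± 5.64 TPM (SD, n = 5) in the control, 149 ± 75.4 TPM in the IF, 73.8 ± 58.4 TPM in the PBMC and 38.4 ± 28.7 TPM in the PBMC-hCG group. The genes most like Spp1 were Rp2 (r = 0.848), Ahcyl2 (r = 0.819) and Clcn3 (r = 0.795), and the group means of Rp2 lay only between 15.0 and 15.9 TPM.

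Of 17 other integrin subunits tested, 7 were higher in IF than in control and none lower. Itgb4, the hemidesmosome subunit of epithelium, rose from 20.8 ± 3.09 to 36.4 ± 4.96 TPM (SD, n = 5, log2 fold change 0.80, adjusted p = 1.31e-05). Itga11, a collagen receptor subunit, rose from 1.71 ± 0.984 to 4.97 ± 2.72 TPM (1.49, adjusted p = 0.00267). Itga3, a laminin receptor subunit, was 0.61 higher (adjusted p = 0.00131), and Itga4, which also pairs with beta 1 to bind osteopontin, was 0.60 higher (adjusted p = 0.00627). In PBMC-hCG against IF, Itga3 was the 1 subunit called, and was lower by a log2 fold change of -0.42 (adjusted p = 0.0368). The list median was 0.36 in IF against control and 0.02 in PBMC-hCG against IF.

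Other ligands of these receptors were 5 higher and 1 lower of 17 tested in IF against control, with a median of 0.13. Tnc, encoding the alpha 9 ligand tenascin-C, rose from 19.7 ± 8.13 to 129 ± 82.1 TPM (2.54, adjusted p = 0.00515). Fn1, encoding fibronectin, rose from 229 ± 69.8 to 430 ± 33.4 TPM (0.98, adjusted p = 0.00162). Thbs1, encoding thrombospondin 1, was 1.72 higher (adjusted p = 0.00111), Edil3, encoding a secreted ligand of alpha v integrins, 1.27 higher (adjusted p = 0.00245) and the alpha 8 ligand gene Npnt 0.40 higher (adjusted p = 0.0227). The 1 ligand that was lower, named after its values were seen, was Postn, encoding the matrix protein periostin (-0.58, adjusted p = 0.0320). In PBMC-hCG against IF, Tnc was the 1 ligand called, at -2.02 (adjusted p = 0.0393), with a mean of 34.5 ± 33.8 TPM, while Fn1 was at 478 ± 59.7 TPM.

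The next list held an osteopontin receptor that is no integrin and genes that cut osteopontin or control thrombin and plasmin. Of 8 tested, 3 were higher and none lower in IF, and 5 of the 8 were called without control replicate 2, where 26.8% of all genes were. Thbd, encoding thrombomodulin, which binds thrombin, rose from 76.8 ± 8.39 to 274 ± 26.3 TPM (1.84, adjusted p = 4.99e-09). Plau, encoding urokinase, rose from 24.6 ± 5.51 to 68.3 ± 18.3 TPM (1.46, adjusted p = 0.000109), and Plat, encoding tissue plasminogen activator, was 0.70 higher (adjusted p = 0.00585). In PBMC-hCG against IF, Plau fell by 1.25 on the log2 scale (adjusted p = 0.0218) to 28.3 ± 6.12 TPM. Plaur, the urokinase receptor gene, and Thbd were lower there too, by log2 fold changes of -0.78 (adjusted p = 0.0325) and -0.43 (adjusted p = 0.0313). Cd44, the osteopontin receptor gene that is no integrin, named after its values were seen, was at 33.1 ± 4.30 TPM in the control and 33.4 ± 2.69 TPM in the IF group and was not called in either comparison. In the PBMC group it was at 46.2 ± 7.52 TPM, 0.48 higher than control (adjusted p = 0.00481) and 0.45 higher than IF (adjusted p = 0.400).

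Genes of latent TGF-beta were 4 higher of 7 tested in IF. Ltbp1, which tethers the latent complex to matrix, rose from 28.9 ± 1.46 to 52.0 ± 3.89 TPM (0.84, adjusted p = 2.38e-07). Lrrc32, which holds it on the cell surface, rose from 21.9 ± 2.95 to 60.9 ± 21.0 TPM (1.43, adjusted p = 7.97e-05) and was the 1 gene of the list called in PBMC-hCG against IF, at -0.85 (adjusted p = 0.0287). Tgfb2 and Tgfb1, which encode the growth factors, were 0.86 and 0.74 higher in IF (adjusted p = 1.36e-05 and 0.00252).

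Inside the cell, 10 of 26 focal adhesion genes were higher and 1 lower in IF. The adaptor paxillin, encoded by Pxn, was 0.61 higher (adjusted p = 6.48e-05), and Lims1, encoding the partner PINCH1 of integrin-linked kinase, was lower, with a log2 fold change of -0.53 (adjusted p = 6.81e-06). In PBMC-hCG against IF, 3 were lower, namely Pxn (-0.33, adjusted p = 0.0313), Ilk (-0.25, adjusted p = 0.0333) and Fermt2 (-0.32, adjusted p = 0.0411), which encode paxillin, integrin-linked kinase and kindlin-2. Of 11 membrane proteins that accompany integrins, 3 were higher and 1 lower in IF, among them Cd9 (0.44, adjusted p = 0.000251). Sdc1, encoding syndecan-1, was the 1 called in PBMC-hCG against IF, at -0.83 (adjusted p = 0.0287). No gene of these 6 lists was called in PBMC against IF with limma, where 7 of the 86 genes tested had an unadjusted p under 0.05.

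**Figure D4:**
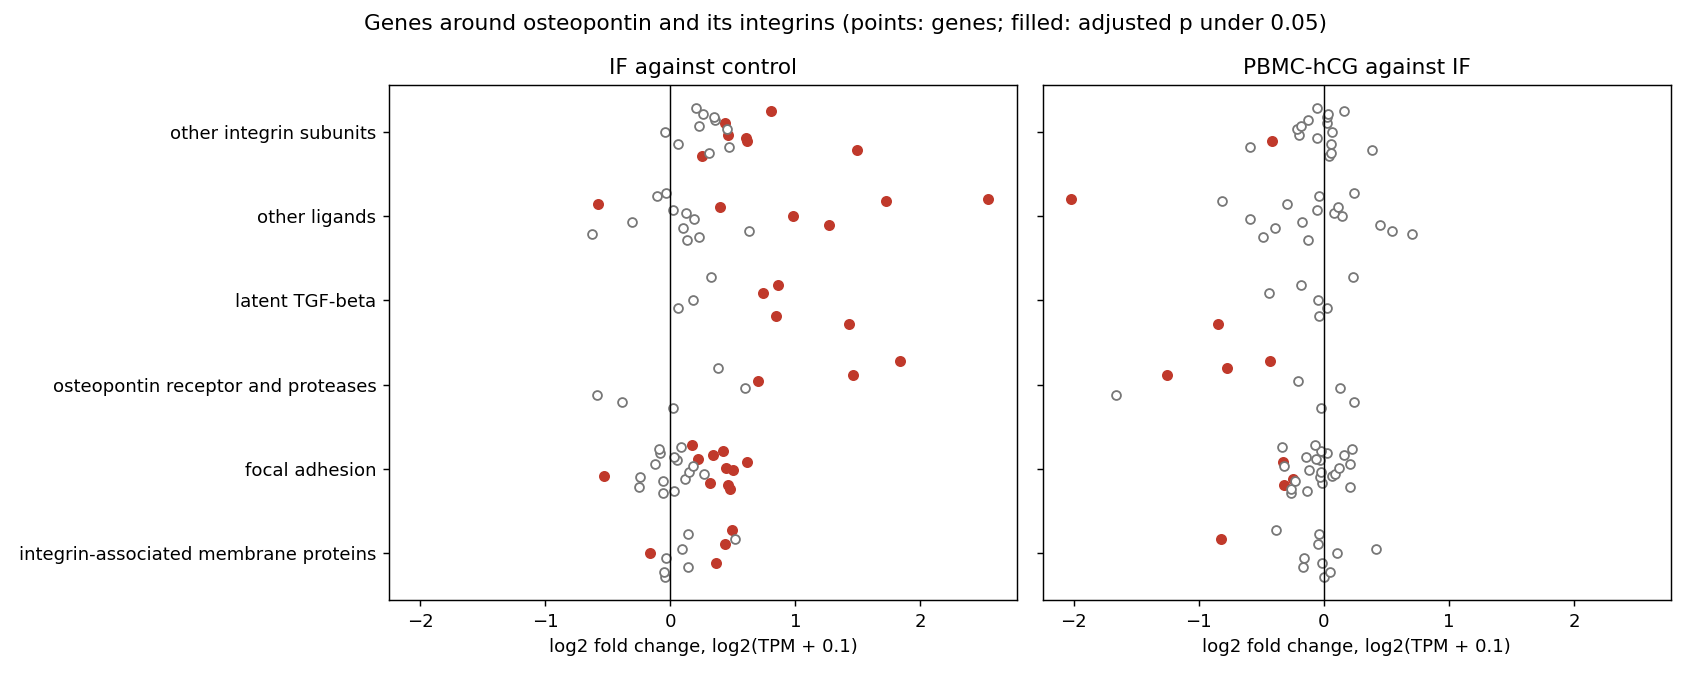
Log2 fold changes of log2(TPM + 0.1) of the genes in 6 lists around osteopontin and its integrins, with 1 point per gene and filled points for an adjusted p under 0.05. Filled points of the other integrin subunits are all to the right of 0 for IF against control (7 of 17), and 1 is filled for PBMC-hCG against IF.

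Of 9 tested genes known to respond to progesterone in the uterus, 2 were lower in IF and none higher. There were 4 called without control replicate 2, where 26.8% of all genes were, and 4 without control replicate 5, where 20.6% were. Areg, also on this list and named because it missed the filter, was listed at 0 TPM in 4 libraries. It reached 34.2 TPM in another and was not tested. Il13ra2, encoding a decoy receptor for interleukin-13, fell from 42.2 ± 9.99 to 2.22 ± 0.560 TPM (-4.20, adjusted p = 2.84e-09), and Fst, encoding follistatin, fell from 66.2 ± 17.3 to 26.1 ± 12.7 TPM (-1.43, adjusted p = 0.0101). In PBMC-hCG against IF, Fst was lower again (-1.39, adjusted p = 0.0324), and Nr2f2, encoding COUP-TFII, was higher (0.47, adjusted p = 0.0407).

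The calls over these 7 lists in PBMC-hCG against IF were as sensitive to single mice as those of the members. In 5 of the 7 fits named above none of their genes was called, and in the other 2, without IF replicate 4 or PBMC-hCG replicate 5, 1 was. The counts rose from 12 to 25 and 22 without IF replicate 3 or PBMC-hCG replicate 1.

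Markers of the cells in which these subunits occur moved in the same comparisons. Between control and IF, endothelium markers were higher for 5 of 5 genes, with sums of 316 to 425 against 473 to 510 TPM. Epithelium markers were higher for 6 of 7 genes (617 to 1114 against 955 to 1194 TPM), and stroma markers were 3 higher and 2 lower of 6 (2733 to 2967 against 3589 to 4793 TPM). Smooth muscle markers were 1 lower of 6, with overlapping sums (5900 to 11100 against 5950 to 7431 TPM). Platelets also carry beta 3, and of their markers none of the 2 tested was called, Gp9 was listed at 0 in 16 libraries, neither had an unadjusted p under 0.05, and the sums were 21.3 to 29.2 and 16.8 to 32.2 TPM. Myeloid markers, from cells that can make osteopontin, were 2 higher of 10, with sums of 1247 to 1397 and 1323 to 1492 TPM.

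Between IF and PBMC-hCG, stroma markers were 2 higher of 6 (4555 to 5382 TPM in PBMC-hCG), endothelium markers 1 higher of 5 (523 to 590 TPM) and epithelium markers 1 higher of 7 (1055 to 1343 TPM). No smooth muscle marker of 6 was called with limma, and 3 had an unadjusted p under 0.05, with sums of 4806 to 6039 TPM, and red cell markers were 2 lower of 5 (342 to 878 against 640 to 1802 TPM). No myeloid (10), NK (6), T cell (6), tested B and plasma cell (4), gland (5), platelet (2) or ovary and oviduct (5) marker was called there with limma, and of these 1 myeloid, 1 NK, 1 platelet and 2 ovary and oviduct markers had an unadjusted p under 0.05. Between control and IF, 1 of 6 T cell markers was higher, and 1 of 4 B and plasma cell, 1 of 5 gland and 1 of 5 ovary and oviduct markers were lower. Sums of gland markers varied widely among mice, from 1250 to 23928 TPM in the control and from 2635 to 12203 TPM in the IF group. Neither NK (6) nor red cell (5) markers held a call in that comparison, where 2 NK markers and 0 red cell markers had an unadjusted p under 0.05. Uterus markers, of which 2 are also in the stroma list, were 2 higher and 2 lower of 5 between control and IF and 2 higher of 5 between IF and PBMC-hCG. Adipose and embryo markers did not pass the filter, and the embryo markers summed to at most 0.386 TPM in any library. The part of these shifts in the differences of the members was not tested.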

How the data were processed

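RNA-seq of 20 uteri was analysed, 5 per group, with groups and replicate numbers taken from the sample labels. Per the labels and the study's methods, poly(A) RNA was made into stranded libraries, reads were trimmed with Trimmomatic, mapped to mm10 with HISAT2 and assembled with StringTie. Versions and the strand setting of the quantification are not given in the sources used here. The values the authors deposited are TPM per gene, without replicates pooled; the authors tested counts with edgeR, which cannot be repeated on TPM. The members and gene lists were chosen with earlier results of these data known. Genes with a TPM above 0 in each of the 20 libraries, 18706 in all, were transformed to log2(TPM + 0.1) and compared with limma 3.58.1 (variance trend, 4 groups in 1 fit, Benjamini-Hochberg adjustment) in R 4.3.3, after testing on simulated data. The mice are separate animals. The limma p-values set each difference between groups against the spread among mice within groups, estimated from all 20 libraries. All members were named, and genes of a list could be named where they were among the up to 5 with the lowest adjusted p under 0.05 in IF against control and in PBMC-hCG against IF, and so could the 3 genes most like Spp1 and Itgb3. Of 22 other ligand symbols, 19 were in the table. Positions and promoter sequences are from RefSeq (GRCm38.p6), where Itgb3 had no promoter entry. Values were drawn with matplotlib 3.10.9 in Python 3.11.15. Alternatives were other pseudocounts, filters, normalization, fits and calls, exact permutation tests, and leaving out each mouse. Leaving out control replicates 2 and 5 was chosen after the data had been seen.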

Additional observations from a re-analysis of the deposited data

Results flagged for a closer look

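In each of 40 sets of 5 values (10 members in 4 groups), the gap of a library to the nearest other was taken as a share of the range. In 9 sets it was above Dixon's 95% critical value. Chance flags about 1 in 20 where sets are independent and normally distributed. These sets were of untransformed TPM and share libraries, so 9 cannot be set against that rate. Control replicate 5 was high in Spp1 (211 TPM, others 76.8 to 102 TPM) and low in Itgb6 (0.337 TPM, others 1.27 to 1.57 TPM). Control replicate 2 was low in Itgb1 (201 TPM, others 319 to 358 TPM) and high in Itgb5 (173 TPM, others 63.0 to 78.6 TPM), and it is the library with the highest sum of adipose markers (342 TPM). IF replicate 5 was high in Itgav (38.3 TPM, others 28.9 to 30.2 TPM) and in Itga9 (28.7 TPM, others 18.5 to 20.7 TPM). PBMC-hCG replicate 1 was high in Itga5 (87.8 TPM, others 51.1 to 57.1 TPM) and in Itgb3 (75.5 TPM, others 39.9 to 48.3 TPM). PBMC replicate 1 was high in Itgb6 (1.70 TPM, others 0.834 to 1.07 TPM).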

How the results depend on the processing

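Itgb3, Itga9 and Itgav kept their direction and call in IF against control under each other pseudocount, filter, normalization and fit, and without any 1 mouse. The exact permutation test, whose p was not adjusted over genes, adds nothing for these 3. Groups of 5 without overlap always reach its smallest p, 0.00794. Under the study's criteria Itgb3 was called and Itga9 and Itgav, below 2-fold, were not. Itgb5 lost its call there with no filter (adjusted p = 0.0503), after quantile normalization (0.0713) and with only the 2 groups in the fit (0.127), and had an exact permutation p of 0.0556. With no filter, Itga5 in PBMC-hCG against IF (0.0622) and Itgav in PBMC-hCG against control (0.0589) lost theirs, as did the latter after quantile normalization (0.0682). Genes called in PBMC-hCG against IF were 812 of all genes with no filter, against 2544, and those in IF against control 2473 with 2 groups in the fit, against 4104. Under the study's own criteria (2-fold and unadjusted p under 0.05), members called were 1 in IF against control (4.03% of all genes), 0 in PBMC-hCG against IF (2.31%), 1 in PBMC against control (3.34%) and 0 in PBMC-hCG against control (4.74%). Without control replicates 2 and 5, 5 members and 33.9% of all genes were called in PBMC-hCG against control. Leaving out 1 mouse gave 3 to 5 called members in IF against control (3323 to 5012 of all genes), 0 to 4 in PBMC-hCG against IF (0 to 5061), 3 to 4 in PBMC against control (2959 to 4628) and 2 to 4 in PBMC-hCG against control (4756 to 7513).

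Direction turned only in differences that were not called. It did for Itgb6 in PBMC against control (-0.0083 with a pseudocount of 1, -0.017 after quantile normalization, -0.32 without control replicates 2 and 5), Itgb6 in PBMC-hCG against control (-0.0080 after quantile normalization, -0.23 without these mice), Itgb1 in PBMC-hCG against control (0.040 after quantile normalization) and Itgb8 in IF against control (-0.0063 without these mice). Leaving out 1 mouse turned Itga5 (-0.054 to 0.29), Itgb1 (-0.014 to 0.20) and Itgb6 (-0.30 to 0.18) in PBMC against control, and Itgb1 (-0.17 to 0.043) and Itgb6 (-0.21 to 0.28) in PBMC-hCG against control. It turned Itgav (-0.043 to 0.10), Itga8 (-0.021 to 0.21), Itga9 (-0.13 to 0.037) and Itgb1 (-0.092 to 0.0021) in PBMC against IF, Spp1 (-0.096 to 0.14) and Itgb8 (-0.065 to 0.19) in PBMC-hCG against IF, and Itgb5 (-0.033 to 0.077) in PBMC-hCG against PBMC. The causes were not tested.

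Over all tested genes, libraries with the same replicate number were not more alike than others. Of 30 same-numbered pairs, 8 had correlated deviations over 0.1 (range -0.25 to 0.46), against 31 of 120 others. Among the members, however, replicate 5 was the highest library of the control, IF and PBMC groups for Itgav, Itga5, Itga9 and Itgb1. It was the lowest of these groups for Itgb6 and Itgb8. In the PBMC-hCG group, replicate 5 was instead lowest for Itgav and highest for Itgb6. Whether a factor shared by number lies behind this was not tested. With the replicate number as a block, no member gained or lost a call or changed direction in any of the 6 comparisons. The depth of the libraries is unknown.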

Other observations

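The genes most like the other members across the 20 libraries, named after their values were seen, were chosen by the measure used for Spp1 and Itgb3 (Pearson's r of the log2 values, 15770 genes). Itga5 was closest to Slc16a1, a lactate and pyruvate transporter gene (r = 0.963, and 0.987 with group means taken out), and Tfrc, the transferrin receptor gene (r = 0.961, and 0.955). Itga8 was closest to Pdgfrl (r = 0.907) and Epha4 (r = 0.898), and Itgb5 to Stard5 (r = 0.926) and Htra3 (r = 0.916). Itga9 was closest to Sh3pxd2b (r = 0.955) and Itgav to Pip5k1a (r = 0.938). Within groups, Itga5 and Itgb6 had r = -0.74 and Itgb3 and Itga8 had r = -0.62, while Itgav and Itga5 had r = 0.82.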
